A study of Mus musculus with 25 samples.

Results

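The 42 genes described here encode parts of the lysosome: cathepsins and other proteases, glycosidases, enzymes and carriers of lipid breakdown, phosphatases, membrane proteins, proton pump subunits, progranulin and the MiT/TFE transcription factors. They were chosen by gene symbol and are 42 of the 24537 gene models in the count table. Each symbol matched 1 gene model, and coordinates are those of the table, on build mm10. RNA was sequenced from 25 mouse libraries of 200 sorted cells each, taken from C57BL6 mice. Mice were fed either a high-fat diet (HFD, 45% fat) or a control diet (CD, 10% fat). There were 16 libraries of macrophages from white adipose tissue (eWAT in the titles), in 4 sorted populations with 2 HFD and 2 CD libraries in each. Pop1 was sorted as Tim4+ with low MHCII, pop2 as Tim4+ with high MHCII, pop4 as Tim4-, CD11c+ and MHCII+, and pop3 as Tim4- and CD11c- with high MHCII. The other 9 libraries were blood monocytes sorted on CD115 and Ly6C, 3 from HFD and 6 from CD mice. The mice's age, sex and time on diet were not given in the sources used here, and no genotype other than the strain was given. Collagenase and flavopiridol were used on adipose tissue only and not on blood, so tissue and preparation cannot be told apart.

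Lysosomes are acidic compartments in which macrophages break down what they engulf as well as their own worn components. The vacuolar proton pump acidifies them, cathepsins cut proteins, glycosidases trim sugars from glycoproteins and glycolipids, and a set of lipases and small carrier proteins takes lipids apart and exports cholesterol. TFEB, TFE3 and MITF are related transcription factors that bind a short E-box element found in front of many lysosomal genes. In adipose tissue, macrophages use this compartment to handle dead adipocytes and the lipid that adipocytes release, and antigen-presenting cells use cathepsins to prepare peptides for MHCII.

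The libraries held 3.75 to 9.34 M counts in genes, and a floor of 3 counts corresponded to 0.342 to 0.7 counts-per-million (CPM). Replicates were separate libraries of a group, but no label says that they came from separate animals, so the p-values measure the spread between libraries, which may be technical. The gate genes followed the labels. Timd4, which encodes Tim4, averaged 439 CPM in pop1 and 313 CPM in pop2, against 2.72 CPM in pop4, 3.28 CPM in pop3 and 0.247 CPM in monocytes. It was unequal between diets, at 263 to 371 CPM in pop1 HFD and 495 to 626 CPM in pop1 CD libraries, and at 88.9 to 102.5 CPM in pop2 HFD and 496 to 563 CPM in pop2 CD libraries. Itgax, which encodes CD11c, averaged 185 CPM in pop4 and 20.1 CPM in pop3. Its pop3 values were unequal between diets, at 24.6 to 43.7 CPM in HFD and 1.13 to 11.2 CPM in CD libraries. The monocyte gene Ly6c2 averaged 499 CPM in monocytes. H2-Aa, an MHCII chain, averaged 539.9 CPM in pop1 and 1419.9 CPM in pop2. Olfactory and vomeronasal receptor genes were taken as a measure of background, and whether the sorted cells express any of them was not tested. Their summed CPM was 80.7 to 783 in adipose libraries and 85.4 to 243 in monocytes. It was 551 to 783 in the 2 pop2 HFD libraries, which were also the shallowest group at 3.75 to 4.48 M counts. In sorted bulk samples, fewer cells of a type and less RNA per cell cannot be told apart.

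All 42 genes passed the filter on low counts. Per kilobase of gene model, cathepsin S (Ctss), the protease that processes the invariant chain of MHCII, was the highest of them in both compartments, at 648 ± 92.1 CPM per kilobase in adipose macrophages (SD, n = 16) and 801 ± 79.8 in monocytes (SD, n = 9). The next 4 in adipose macrophages were the aminopeptidase cathepsin H (Ctsh) at 299 ± 42.7, the membrane glycoprotein Lamp1 at 297 ± 53.3, cathepsin B (Ctsb) at 284 ± 61.5 and acid ceramidase (Asah1) at 246 ± 113 CPM per kilobase. These 4 did not differ beyond their spread. In monocytes Asah1, Ctsh and Lamp2 stood next, at 357 ± 25.9, 356 ± 18.9 and 354 ± 30.3 CPM per kilobase, followed by Lamp1 at 307 ± 28.2. At the other end, cathepsin K (Ctsk) and alpha-galactosidase A (Gla) were last of the 42 in monocytes and adipose macrophages in that order, at 0.14 ± 0.137 CPM per kilobase for Ctsk in monocytes and 6.35 ± 8.98 for Gla in adipose macrophages.

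**Figure D1:**
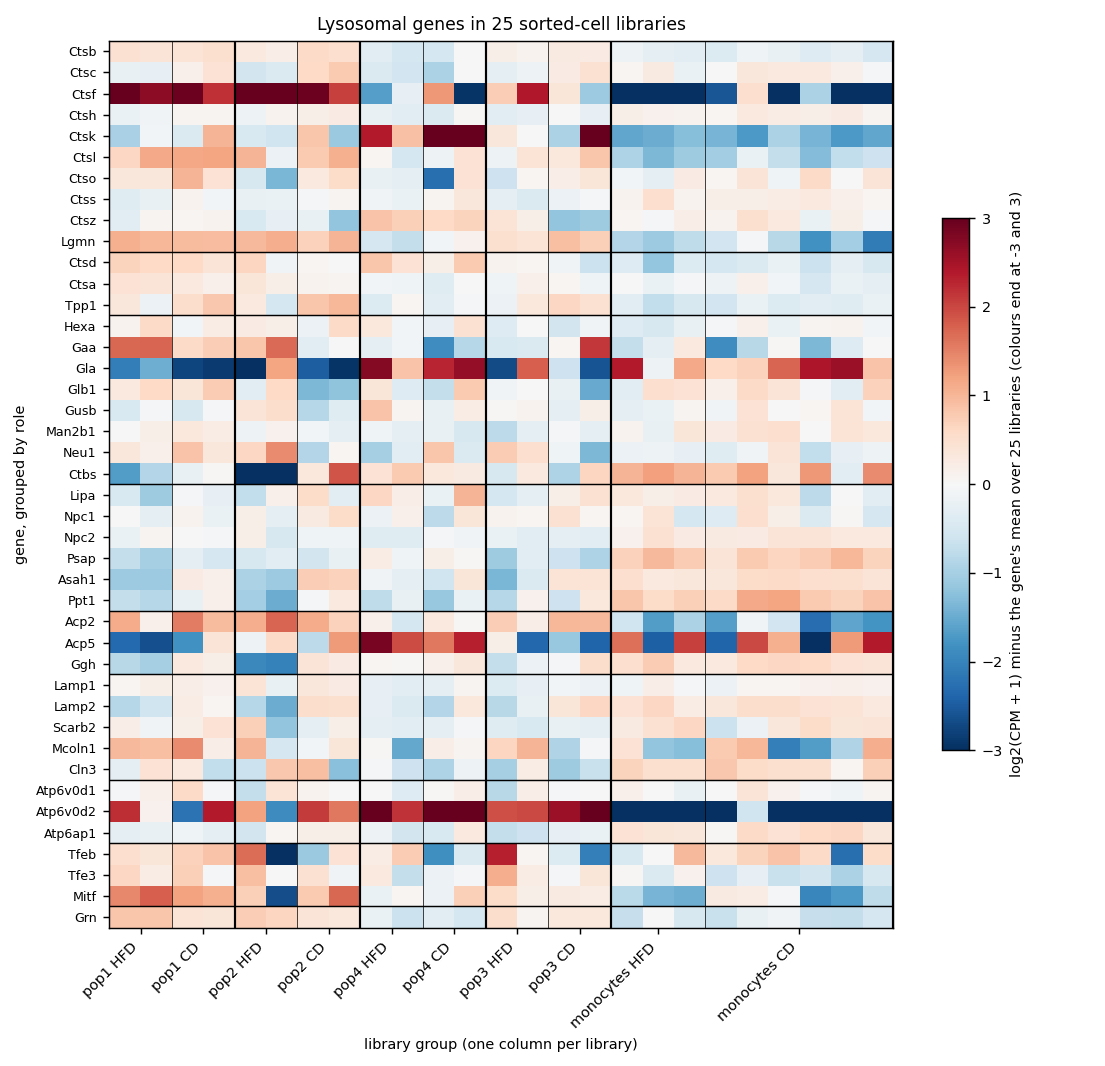
Heat map of the 42 genes (rows, grouped by role) in the 25 libraries (columns, grouped by population, HFD left of CD). Colour is log2(CPM + 1) minus the gene's mean over all libraries, clipped at 3 in each direction. Ctsf, Ctsk and Atp6v0d2 are low across the monocyte columns, while Gla is low in most Tim4+ columns.

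Adipose macrophages were first compared with blood monocytes. Adipose macrophages had 13 of the 42 genes higher and 13 lower at an adjusted p under 0.05 (edgeR quasi-likelihood test, Benjamini-Hochberg over 16961 genes). Of all genes tested, 18.5% were higher and 18.5% lower. The median log2 difference was -0.08 over the 42 genes and 0.19 over all genes, with 18 of the 42 above 0. The split depended on the scaling. It was 15 higher and 9 lower with DESeq2 size factors or with library totals alone, and 15 and 10 with upper-quartile factors, where the median of all genes moved to between 0.31 and 0.38. It was 10 and 4 with background receptor level as a covariate. Of all genes, 624 were higher and 856 lower with that covariate, against 3139 and 3139 without it. The roles were unevenly spread over the calls: all 3 aspartic and serine proteases and 5 of 10 cysteine proteases were higher, and 4 of 6 lipid genes and 3 of 8 glycosidases were lower. None of the 26 calls changed direction under another scaling.

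Among the cysteine proteases, cathepsin F (Ctsf; chr19:4855129-4860912, plus strand) stood at 0.269 to 168 (median 41.3) CPM in adipose macrophages, against 0 to 12.7 (median 0) CPM in monocytes. Ctsk, the collagen-cleaving cathepsin of osteoclasts (chr3:95499210-95509387, plus strand), stood at 0.524 to 151 (median 2.74) CPM in adipose macrophages, against 0 to 0.699 (median 0.172) CPM in monocytes. Both genes were at or near the floor in most monocyte libraries, and the ranges overlapped because some adipose libraries were low as well. Their fitted log2 differences of 6.08 ± 1.28 (SE, adjusted p = 0.000938, edgeR) and 4.48 ± 0.88 (SE, adjusted p = 0.000508, edgeR) depend on the prior count for that reason. Cathepsin L (Ctsl; chr13:64361890-64370520, minus strand), a broad endopeptidase, had 161 to 527 (median 339) CPM in adipose macrophages and 90.4 to 202 (median 122) CPM in monocytes, a log2 difference of 1.46 ± 0.17 (SE, adjusted p = 1.32e-06, edgeR). Legumain (Lgmn; chr12:102394082-102439813, minus strand), the asparaginyl endopeptidase that activates several cathepsins, had 129 to 449 (median 370.4) CPM in adipose macrophages and 48.5 to 205 (median 114) CPM in monocytes, a log2 difference of 1.48 ± 0.20 (SE, adjusted p = 5.93e-06, edgeR). For Lgmn the overlap came from pop4 on the adipose side and from replicates 1 and 2 of the monocyte CD group. Ctsb was also higher (0.46 on the log2 scale). Ctss (-0.33) and Ctsh (-0.25) were slightly lower, and neither call held under DESeq2 size factors or library totals.

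The aspartic protease cathepsin D (Ctsd), tripeptidyl peptidase Tpp1 and the serine carboxypeptidase cathepsin A (Ctsa), which also protects beta-galactosidase and neuraminidase, were higher by 0.81, 0.67 and 0.21 on the log2 scale. The Ctsa call held in 7 of 34 alternative settings. Progranulin (Grn), a lysosomal and secreted protein that cathepsins cut into granulins, was higher by 0.67.

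Every called lipid gene was lower in adipose macrophages, and so was every called glycosidase with the TMM scaling used here. With DESeq2 size factors, upper-quartile factors or library totals, the glycosidases Hexa and Gaa were called higher (log2 differences of 0.39 to 0.45 and 0.93 to 0.97) and Man2b1 was no longer called, which left 2 glycosidases higher and 2 lower, and DESeq2's test called Neu1 higher as well. Gla (chrX:134588169-134601005, minus strand), which removes terminal galactose from glycolipids, had 0.198 to 77.5 (median 2.52) CPM in adipose macrophages and 9.47 to 68.8 (median 24.7) CPM in monocytes. Chitobiase (Ctbs; chr3:146450467-146465848, plus strand), which cleaves the chitobiose core of asparagine-linked glycans, had 2.38 to 287 (median 86.4) CPM in adipose macrophages and 60.3 to 207 (median 157) CPM in monocytes. The log2 differences were -2.34 ± 0.60 for Gla (SE, adjusted p = 0.00498, edgeR) and -1.49 ± 0.24 for Ctbs (SE, adjusted p = 6.17e-05, edgeR). Adipose values of both genes reached into the monocyte range. The alpha-mannosidase Man2b1 was lower by a log2 difference of -0.35, a call that held in 27 of 34 settings. Palmitoyl-protein thioesterase (Ppt1; chr4:122836227-122859175, plus strand), which strips fatty acids from proteins, had 116 to 409.9 (median 248) CPM in adipose macrophages and 483 to 744 (median 572) CPM in monocytes, a log2 difference of -1.21 ± 0.14 (SE, adjusted p = 1.21e-06, edgeR). Every adipose library lay below every monocyte library. The same held for prosaposin (Psap; chr10:60277628-60302600, plus strand), the precursor of the saposins that present lipids to hydrolases, which is named here after its values were seen. It had 141 to 347 (median 224) CPM in adipose macrophages and 389 to 590.3 (median 501) CPM in monocytes, a log2 difference of -1.17 ± 0.10 (SE, adjusted p = 1.53e-08, edgeR). Ppt1 and Psap were the only 2 of the 42 genes whose ranges did not overlap. The share of all genes that separated in this way was not counted, so 2 of 42 cannot be called few or many. Asah1, which splits ceramide, and the cholesterol carrier Npc2 were lower by log2 differences of -0.66 and -0.46.

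Outside those classes, the lysosomal acid phosphatase Acp2 (chr2:91202912-91214098, plus strand) had 103 to 498 (median 269) CPM in adipose macrophages and 29.6 to 138 (median 48.7) CPM in monocytes, a log2 difference of 1.81 ± 0.27 (SE, adjusted p = 1.9e-05, edgeR). Atp6v0d2 (chr4:19876838-19922566, minus strand), the d2 isoform of a membrane-sector pump subunit found in osteoclasts and some macrophages, had 2.19 to 475 (median 64.5) CPM in adipose macrophages and 0 to 8.82 (median 0.254) CPM in monocytes. All monocyte libraries but CD replicate 2 were at or under 0.376 CPM, so its fitted log2 difference of 6.85 ± 1.07 (SE, adjusted p = 4.08e-05, edgeR) depends on the prior count. The pump accessory subunit Atp6ap1 was lower by a log2 difference of -0.63, and so was the folate enzyme Ggh, by -0.79. The widely expressed isoform Atp6v0d1 had 205 ± 47.3 CPM in adipose macrophages and 209.5 ± 25.7 CPM in monocytes (SD, n = 16 and 9) and did not pass the test. Of the transcription factors, Mitf (chr6:97807058-98021358, plus strand) had 11.2 to 267 (median 119) CPM in adipose macrophages and 18.8 to 91.6 (median 43) CPM in monocytes, a log2 difference of 1.43 ± 0.36 (SE, adjusted p = 0.00429, edgeR). Its ranges overlapped. Tfe3 was higher by 0.60, a call that held in 23 of 34 settings, and Tfeb had 26.6 ± 24.7 CPM in adipose macrophages and 24.4 ± 11 CPM in monocytes (SD, n = 16 and 9) and did not pass. Among membrane proteins, Lamp2 and Cln3 were lower by log2 differences of -0.64 and -0.73. The Cln3 call held in 24 of 34 settings and was lost under each other scaling, DESeq2's test, the background covariate, the replicate block and CD-CD monocyte controls only, and without any of the 3 monocyte HFD libraries. Lamp1, the glucocerebrosidase carrier Scarb2 and the cation channel Mcoln1 did not pass. In all, 16 of the 42 genes did not pass, the others being Ctsc, Ctsz, Ctso, Hexa, Gaa, Glb1, Gusb, Neu1, Lipa, Npc1 and Acp5. Their log2 differences lay between -1.50 for Acp5 and 0.79 for Gaa.

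**Figure D2:**
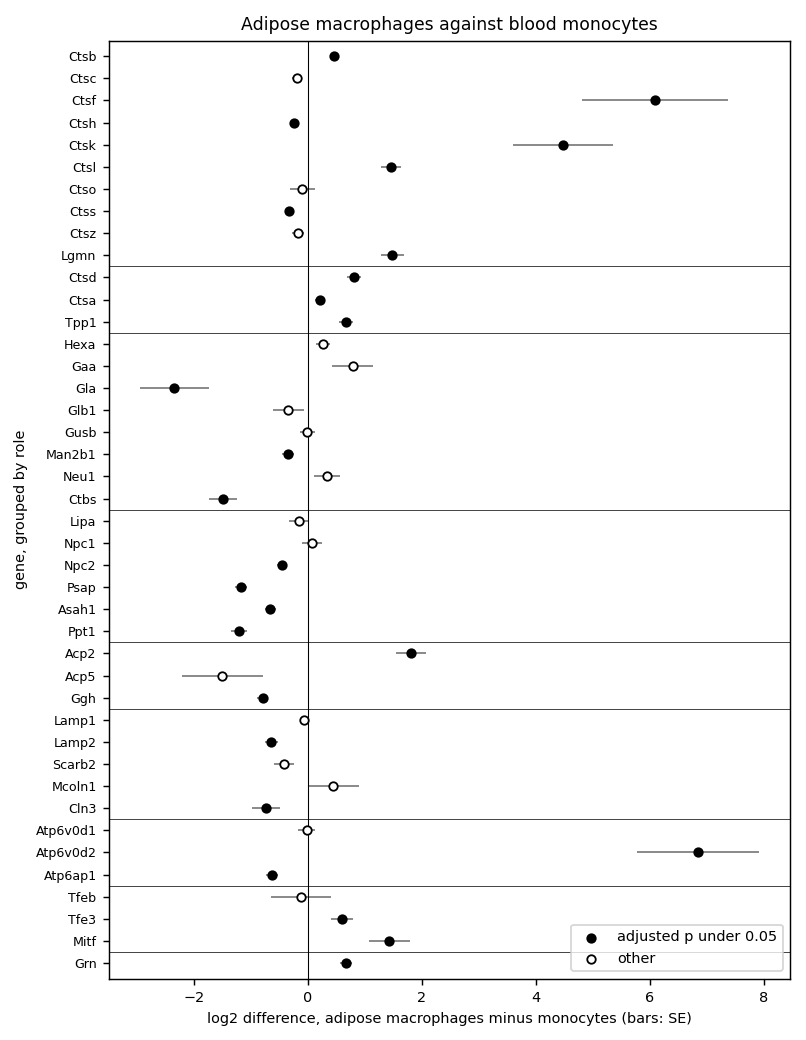
Log2 difference of adipose macrophages minus blood monocytes for each of the 42 genes, grouped by role, with points at the edgeR estimate and bars of 1 SE. Atp6v0d2, Ctsf and Ctsk lie far to the right with wide bars, and Gla, Ctbs, Ppt1 and Psap lie to the left.

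In wider lysosomal lists of 130 other genes, 126 were tested. Adipose macrophages had 19 of them higher and 39 lower, where 18.5% of all genes were higher and 18.5% lower. The median log2 difference was -0.22 over these genes and 0.19 over all genes. With TMM factors, every list but that of cathepsin inhibitors had more lower than higher calls. The lists were not counted under other scalings. Of all genes, 3726 were higher and 2522 lower with DESeq2 size factors, and 3896 and 2432 with library totals. Among the 15 other pump subunits, 1 was higher and 5 were lower, and among the 13 genes that deliver enzymes to lysosomes 1 was higher and 5 were lower. The single higher delivery gene was Igf2r, the cation-independent mannose 6-phosphate receptor, at 31.1 ± 22.8 CPM in adipose macrophages and 1.39 ± 0.899 CPM in monocytes (SD, n = 16 and 9), a log2 difference of 4.23 ± 0.65 (SE, adjusted p = 3.58e-05, edgeR). Sort1, an alternative sorting receptor, ran the other way at 30.5 ± 23.4 CPM in adipose macrophages and 186 ± 35.3 CPM in monocytes, a log2 difference of -3.06 ± 0.35 (SE, adjusted p = 7.92e-07, edgeR). The cathepsin inhibitor Serpinb6a averaged 451 ± 178 CPM in adipose macrophages and 49 ± 15.8 CPM in monocytes, a log2 difference of 3.05 ± 0.21 (SE, adjusted p = 2.81e-10, edgeR). The inhibitors Cst3 and Cst7 differed by 0.20 and -5.32 on that scale.

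Of the other membrane proteins, the tetraspanin Cd63 differed most, at 176 ± 44.9 CPM in adipose macrophages and 1.16 ± 1.24 CPM in monocytes (SD, n = 16 and 9), a log2 difference of 8.61 ± 0.53 (SE, adjusted p = 6.56e-11, edgeR). The glycoprotein Gpnmb and the endolysosomal channels Tpcn2 and Tpcn1 were higher by 3.96, 3.34 and 1.67 on the log2 scale. Of the hydrolases, the hyaluronidase Hyal2 was higher by 3.0, and the proteases Ctse, Ctsg and Ctsw were lower by log2 differences of -5.16, -4.53 and -2.63, with Ctsg under the floor in adipose macrophages at 0.251 ± 0.246 CPM. The pump subunit Atp6v0a1 was higher by 2.63, while Atp6v1b2, Atp6v0c and Atp6v1h were lower by log2 differences of -0.93, -0.79 and -0.65. In the delivery list, Gnptab, which makes part of the mannose 6-phosphate tag, and the retromer subunit Vps26a were lower by log2 differences of -1.69 and -1.04. The Ragulator, Rag and folliculin genes link nutrient sensing to the lysosome, and 1 of the 15 was higher and 5 were lower. Rragd was higher by 3.35, and Tfec, a relative of Mitf, Rragb and Lamtor5 were lower by log2 differences of -2.72, -2.65 and -0.49. Rragd in monocytes and Rragb in adipose macrophages averaged 0.315 ± 0.359 and 0.287 ± 0.417 CPM, under the floor. Of 18 autophagy genes 3 were higher and 5 lower, with Gabarapl1 and Atg16l1 higher by 1.89 and 1.0 and Wipi2 and Atg7 lower by log2 differences of -1.50 and -1.06.

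Marker genes of other cell types were unequal as well. Summed CPM of 10 adipocyte genes was 312 to 1053 in adipose libraries and 33.4 to 64.5 in monocytes, that of 11 stromal progenitor genes was 129 to 1618 and 61.7 to 138, and that of 6 endothelial genes was 5.92 to 73.5 and 1.98 to 28. Summed CPM of 6 red cell genes was 1.3 to 635 in adipose libraries and 406 to 1414 in monocytes, and that of 9 T, B and NK cell genes was 2.65 to 158 and 5.24 to 304. Sums of platelet genes were 173 to 986 in adipose libraries and 147 to 522 in monocytes, those of dendritic cell genes 29.5 to 383 and 42.3 to 202, those of neutrophil genes 5.95 to 37 and 7.4 to 237, and those of mesothelial genes 0.246 to 42.6 and 0.233 to 3.21. No gene of these lists was at 0 in every library of either compartment. Neither the cells these transcripts came from nor their part in the differences above was tested.

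The E-box that the MiT/TFE factors bind has the core CACGTG. The window from 250 bases before to 50 bases after the annotated start was available from RefSeq for 36 of the 42 genes, and 12 of them (33.3%) held the core, against 2187 of 27025 genes (8.09%). The motif is its own reverse complement, so both strands were searched at once. The 12 were Ctsa, Ctsd, Ctsf, Ctsl, Lgmn, Lamp1, Mcoln1, Cln3, Gaa, Gla, Glb1 and Atp6v0d1. The longer palindrome TCACGTGA, which contains the core, was in 6 of the 36 (16.7%) and in 1.12% of all genes. Of the genes with the core, Ctsd, Ctsf, Ctsl and Lgmn were higher in adipose macrophages and Gla was lower. Ctsa was also called higher and Cln3 lower, calls that held in 7 and 24 of 34 settings. The others did not pass. A match is a match of letters and not a measured binding site. Stretches of 100 bases from 3 of these promoters are shown, for the membrane glycoprotein, the aspartic cathepsin and the cation channel with the core, with each CACGTG in capitals. Sequences are RefSeq's on build GRCm38.p6, written 5′ to 3′ on the gene's strand.
Lamp1, chr8:13159061-13159160, plus strand: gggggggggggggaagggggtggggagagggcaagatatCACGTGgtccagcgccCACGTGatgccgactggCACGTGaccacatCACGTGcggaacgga
Ctsd, chr7:142387868-142387967, minus strand: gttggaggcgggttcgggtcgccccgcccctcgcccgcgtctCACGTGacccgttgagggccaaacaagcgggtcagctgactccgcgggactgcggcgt
Mcoln1, chr8:3500419-3500518, plus strand: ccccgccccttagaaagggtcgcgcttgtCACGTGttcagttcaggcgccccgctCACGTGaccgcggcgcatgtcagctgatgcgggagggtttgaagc
Counted from the annotated start, the Lamp1 and Mcoln1 stretches run from -100 to -1 and hold 4 and 2 copies of the core. The Ctsd stretch runs from -140 to -41 and holds 1 of the 2 copies in its window, the other beginning at -245.

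Within adipose tissue, the Tim4+ populations (pop1 and pop2) were compared with the Tim4- populations (pop4 and pop3). Of the 42 genes, 6 were higher in Tim4+ cells (Ctsl, Lgmn, Ctsb, Grn, Lamp1 and Ctsa) and 5 were lower (Gla, Ctsk, Ctbs, Ggh and Ctsz). Of all genes, 7.26% were higher and 7.79% lower, and the median log2 difference was 0.23 over the 42 and 0.14 over all genes. The split was 15 higher and 4 lower with DESeq2 size factors, 12 and 4 with upper-quartile factors and 11 and 4 with library totals. Glycosidases were called in the lower direction alone with TMM factors (Gla and Ctbs), although 5 of the 8 lay above 0 and their median was 0.20. Man2b1 was called higher under each of the other 3 scalings, and Hexa and Gaa were called higher with DESeq2 size factors.

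Ctsb (chr14:63122462-63145923, plus strand), an abundant endopeptidase and carboxypeptidase, stood at 1344 to 1722 (median 1571) CPM in Tim4+ cells, against 804 to 1395 (median 1212) CPM in Tim4- cells. Grn (chr11:102430322-102436809, plus strand) stood at 422 to 604 (median 486) CPM in Tim4+ cells, against 214 to 489.5 (median 324) CPM in Tim4- cells. The log2 differences were 0.48 ± 0.07 for Ctsb (SE, adjusted p = 0.000135, edgeR) and 0.62 ± 0.12 for Grn (SE, adjusted p = 0.00199, edgeR), and in both the low Tim4- libraries were those of pop4, with pop3 nearer to the Tim4+ range. Lgmn stood at 341 to 449 (median 418) CPM in Tim4+ cells and 129 to 395 (median 254) CPM in Tim4- cells, a log2 difference of 0.80 ± 0.21 (SE, adjusted p = 0.0137, edgeR), again with pop4 lowest. Ctsl stood at 208 to 527 (median 481) CPM in Tim4+ cells and 161 to 417 (median 267) CPM in Tim4- cells, a log2 difference of 0.71 ± 0.19 (SE, adjusted p = 0.0137, edgeR). Lamp1, the main glycoprotein lining of the lysosome, stood at 564 to 874 (median 751) CPM in Tim4+ cells and 494 to 702 (median 553) CPM in Tim4- cells, a log2 difference of 0.38 ± 0.09 (SE, adjusted p = 0.00825, edgeR). Ranges overlapped for all of these. Ctsa was higher by 0.33 (adjusted p = 0.0222, edgeR), a call that held in 21 of 34 settings.

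Of the genes lower in Tim4+ cells, Gla had 1.79 and 3.25, 0.729 and 0.585, 0.198 and 25.7, 1.1 and 0.524 CPM in pop1 HFD, pop1 CD, pop2 HFD and pop2 CD libraries in that order, against 77.5 and 20.3, 55.6 and 71.8, 0.828 and 39.5, 6.58 and 0.945 CPM in pop4 HFD, pop4 CD, pop3 HFD and pop3 CD libraries. Gla was at 3.25 CPM or less in all Tim4+ libraries but pop2 HFD replicate 3, high in all pop4 libraries and in pop3 HFD replicate 3, and low in the rest of pop3. Its log2 difference was -3.42 ± 0.81 (SE, adjusted p = 0.00683, edgeR). Ctsk stood at 0.524 to 5.7 (median 1.42) CPM in Tim4+ cells and 0.712 to 151 (median 10.6) CPM in Tim4- cells, a log2 difference of -2.76 ± 0.79 (SE, adjusted p = 0.0215, edgeR), with its highest values in the 2 pop4 CD libraries at 151 and 40.9 CPM. That call held in 25 of 34 settings, and the log2 difference lay between -3.33 and -1.75 as single libraries were left out. It was lost with the background covariate and the replicate block, and without pop1 CD replicate 7, pop1 HFD replicate 2, pop2 CD replicate 8, pop2 HFD replicate 3, pop3 CD replicate 8, pop4 CD replicate 7 or pop4 HFD replicate 2. The folate polyglutamate hydrolase Ggh (chr4:20042052-20066111, plus strand) stood at 66.5 to 363 (median 234) CPM in Tim4+ cells and 168 to 397 (median 283) CPM in Tim4- cells, a log2 difference of -0.62 ± 0.11 (SE, adjusted p = 0.000795, edgeR). Ctbs stood at 2.38 to 287 (median 53.6) CPM in Tim4+ cells and 40 to 134 (median 95.8) CPM in Tim4- cells, a log2 difference of -1.44 ± 0.30 (SE, adjusted p = 0.00259, edgeR). For Ggh and Ctbs the lowest Tim4+ values were the HFD libraries, and the diet difference itself differed between Tim4- and Tim4+ cells, as given with the diet results. The carboxypeptidase cathepsin Z (Ctsz) was lower by a log2 difference of -0.39 (adjusted p = 0.0462, edgeR), a call that held in only 8 of 34 settings. Background receptor CPM was 268 to 783 in Tim4+ and 80.7 to 687 in Tim4- libraries. With that level as a covariate 5 of the 11 calls remained, all of them higher calls, and its part in the other 6 calls was not tested. Of all genes, 158 were higher and 260 lower with that covariate, against 1232 and 1322 without it.

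Of the 126 other lysosomal genes tested, 11 were higher and 13 lower in Tim4+ cells, where 7.26% of all genes were higher and 7.79% lower. Lyz1, a lysozyme, averaged 106 ± 72.4 CPM in Tim4+ cells and 550.1 ± 240.0 CPM in Tim4- cells (SD, n = 8 each), a log2 difference of -2.60 ± 0.25 (SE, adjusted p = 5.38e-07, edgeR). Sgsh, the sulfamidase of heparan sulfate breakdown, averaged 52.4 ± 22 CPM in Tim4+ cells and 13.4 ± 10.7 CPM in Tim4- cells, a log2 difference of 2.40 ± 0.37 (SE, adjusted p = 0.000138, edgeR). The endolysosomal channel Tpcn1 averaged 78.8 ± 32.7 CPM in Tim4+ cells and 21.3 ± 15.1 CPM in Tim4- cells, a log2 difference of 2.23 ± 0.39 (SE, adjusted p = 0.000573, edgeR). The cathepsin inhibitors cystatin C (Cst3) and Serpinb6a were higher in Tim4+ cells, by 0.43 and 0.97 on the log2 scale, beside the higher Ctsb, Ctsl and Lgmn. The autophagy gene Gabarapl1, Rragd, the phospholipase Pla2g15 and Sumf1, which activates sulfatases, were higher by 2.06, 3.38, 1.55 and 0.69. Gpnmb, Sort1, Gnptab, the phospholipase-like Plbd1, Atp6v1b2 and the macrophage glycoprotein Cd68 were lower by log2 differences of -3.43, -1.95, -1.59, -1.36, -0.57 and -0.56. Tfec was called higher by 3.20, a difference between averages of group means on the log scale, while its mean level was 20.5 ± 17.7 CPM in Tim4+ cells and 28.3 ± 44.6 CPM in Tim4- cells (SD, n = 8 each).

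Between the 2 Tim4+ populations, pop1 (low MHCII) against pop2 (high MHCII), none of the 42 genes passed at an adjusted p under 0.05 in edgeR or in DESeq2, and at an unadjusted p under 0.05 there were 5 higher and 0 lower in edgeR. At that unadjusted threshold 881 of all genes were higher and 783 lower, 9.81% of all genes together. Of all genes, 0.283% were higher and 0.183% lower at the adjusted threshold, and the median log2 difference was 0.06 over the 42 and -0.07 over all genes. Ggh came closest, with 154 and 137 CPM in pop1 HFD and 340.5 and 313 CPM in pop1 CD libraries, against 71.2 and 66.5 CPM in pop2 HFD and 363 and 326 CPM in pop2 CD libraries. The gap lay between the HFD libraries, and the CD libraries overlapped. Its log2 difference was 0.50 ± 0.16 (SE, adjusted p = 0.229, edgeR). Without pop2 CD replicate 7, 1 gene was called, which was Ctsz (log2 difference 0.81, adjusted p = 0.0455, edgeR). A p that misses the threshold does not show that the populations were alike.

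The CD11c+ pop4 was compared with the CD11c- pop3. Of the 42 genes, 3 were higher in pop4 (Ctsz, Psap and Ctsd) and 3 lower (Ctsb, Grn and Ctsc), where 2.32% of all genes were higher and 4.25% lower. The median log2 difference was 0.05 over the 42 and -0.17 over all genes. The split was 2 higher and 5 lower with DESeq2 size factors, and 2 and 4 with upper-quartile factors or library totals, where Ctsd was no longer called and Lgmn was lower.

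Ctsz (chr2:174427494-174439039, minus strand), which trims single residues from the carboxyl end of proteins, had 514 and 469.7 CPM in pop4 HFD and 431 and 452 CPM in pop4 CD libraries, against 377 and 320.2 CPM in pop3 HFD and 124 and 135 CPM in pop3 CD libraries. Psap had 347 and 272 CPM in pop4 HFD and 335 and 304 CPM in pop4 CD libraries, against 141 and 238 CPM in pop3 HFD and 192 and 155 CPM in pop3 CD libraries. Ctsd (chr7:142375916-142387870, minus strand), an aspartic endopeptidase, had 429 and 324 CPM in pop4 HFD and 270.4 and 416 CPM in pop4 CD libraries, against 257 and 251.1 CPM in pop3 HFD and 224 and 154 CPM in pop3 CD libraries. In each of the 3 genes all pop4 libraries were above all pop3 libraries. The log2 differences were 1.13 ± 0.19 for Ctsz (SE, adjusted p = 0.00079, edgeR), 0.79 ± 0.17 for Psap (SE, adjusted p = 0.00914, edgeR) and 0.71 ± 0.21 for Ctsd (SE, adjusted p = 0.0453, edgeR). Psap in pop4 still lay below the monocyte libraries.

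On the lower side, Ctsb had 912 and 810.3 CPM in pop4 HFD and 804 and 1179 CPM in pop4 CD libraries, against 1324 and 1245 CPM in pop3 HFD and 1395 and 1382 CPM in pop3 CD libraries. Grn had 292 and 214 CPM in pop4 HFD and 266 and 235 CPM in pop4 CD libraries, against 489.5 and 357 CPM in pop3 HFD and 419.9 and 418 CPM in pop3 CD libraries. All pop4 libraries were below all pop3 libraries in both. Cathepsin C (Ctsc; chr7:88278085-88315861, plus strand), the dipeptidyl peptidase that activates serine proteases of immune granules, had 797 and 720.0 CPM in pop4 HFD and 558 and 1081 CPM in pop4 CD libraries, against 886 and 970.1 CPM in pop3 HFD and 1287 and 1473 CPM in pop3 CD libraries. Here pop4 CD replicate 8 lay inside the pop3 range. The log2 differences were -0.53 ± 0.10 for Ctsb (SE, adjusted p = 0.00405, edgeR), -0.74 ± 0.18 for Grn (SE, adjusted p = 0.015, edgeR) and -0.52 ± 0.15 for Ctsc (SE, adjusted p = 0.045, edgeR). The Ctsc call held in 15 of 34 settings and the Ctsd call in 10, and they were lost without 16 and 17 of the 25 libraries, each left out singly. The count of 6 calls fell to 2 without pop3 HFD replicate 2, and to 3 without pop3 CD replicate 8, pop4 HFD replicate 2 or pop4 HFD replicate 3. Background receptor CPM was 80.7 to 206 in pop4 and 199.8 to 687 in pop3, and with it as a covariate only Ctsb and Grn were called. Of all genes, 41 were higher and 105 lower with that covariate, against 394 and 720 without it. Summed CPM of 5 platelet genes was 173 to 277 in pop4 and 587 to 986 in pop3. Neither the cells these transcripts came from nor their part in these differences was tested.

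A pair of further genes did not overlap between pop4 and pop3 and did not pass, and are named after their values were seen. The share of all genes that separated in this way was not counted, while 26.2% of all genes had an unadjusted p under 0.05 (edgeR). Acp5, the tartrate-resistant acid phosphatase of osteoclasts and activated macrophages, had 65.8 and 34.8 CPM in pop4 HFD and 26.6 and 46 CPM in pop4 CD libraries, against 9.46 and 0.797 CPM in pop3 HFD and 3.2 and 0.756 CPM in pop3 CD libraries (log2 difference 3.74 ± 1.35, SE, adjusted p = 0.0915, edgeR). Lgmn had 149 and 129 CPM in pop4 HFD and 198 and 229 CPM in pop4 CD libraries, against 294 and 280.4 CPM in pop3 HFD and 395 and 346 CPM in pop3 CD libraries (log2 difference -0.92 ± 0.30, SE, adjusted p = 0.0632, edgeR). Among the 126 other lysosomal genes, 7 were higher and 5 lower in pop4, where 2.32% of all genes were higher and 4.25% lower. Hydrolases were called in both directions. Fuca1, which removes fucose, was higher, at 163 ± 16 CPM in pop4 and 57 ± 14.2 CPM in pop3 (SD, n = 4 each). Galc and Sgsh, which act on galactosylceramide and heparan sulfate, were lower, at 41.1 ± 9.58 and 4.04 ± 1.59 CPM in pop4 and 147 ± 36.7 and 22.7 ± 5.9 CPM in pop3. The log2 differences of Fuca1, Galc and Sgsh were 1.53, -1.83 and -2.55, with adjusted p = 0.00343, 0.00111 and 0.0057 (edgeR). The pump subunit Atp6v0a2 and Laptm5, a transmembrane protein of lysosomes, were higher by 1.56 and 0.47 on the log2 scale, and Tpcn1 and Serpinb6a were lower by log2 differences of -2.11 and -0.95. Tfec averaged 0.34 ± 0.679 CPM in pop4, under the floor, and 56.2 ± 50.5 CPM in pop3 (adjusted p = 0.000414, edgeR).

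**Figure D3:**
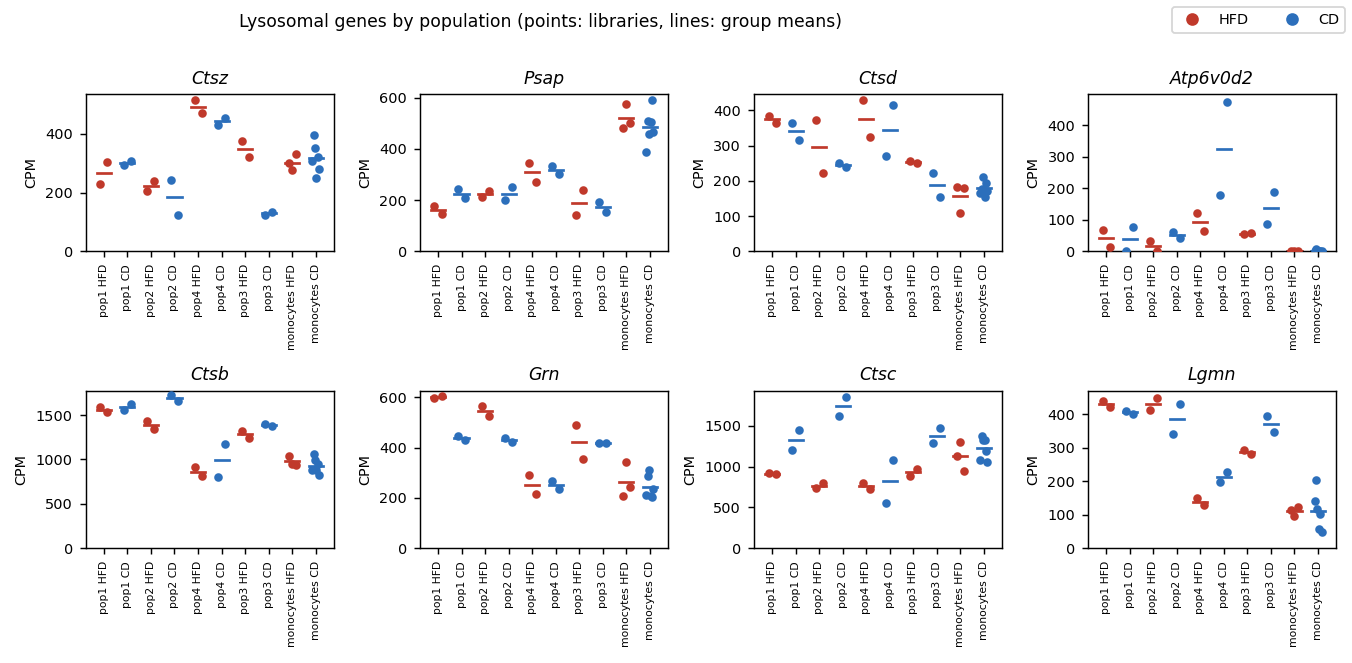
CPM of 8 lysosomal genes in each library by population, with HFD and CD libraries marked, and short bars at group means. Ctsz, Psap and Ctsd are higher and Ctsb and Grn lower in every pop4 library than in every pop3 library, and Psap is highest in monocytes.

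The diet comparison, HFD against CD, was made over the 4 adipose populations with equal weight. Of the 42 genes, none was higher and 7 were lower in HFD macrophages: Asah1, Ggh, Lamp2, Ctbs, Ctsc, Tpp1 and Ctss. Of all genes, 1.67% were higher and 3.67% lower, and the median log2 difference was -0.16 over the 42 and -0.12 over all genes. At an unadjusted p under 0.05 there were 3 higher and 14 lower of the 42 in edgeR, and DESeq2 called 3 higher and 9 lower at an adjusted p under 0.05. Of all genes, 1335 were higher and 2022 lower at the unadjusted threshold in edgeR, 19.8% together. DESeq2 called 896 of all genes higher and 1099 lower at the adjusted threshold. With library totals alone the split was 1 higher and 5 lower. All adipose CD libraries carry a title series written CD-CD, which no HFD library has, so diet and title series cannot be told apart. Summed CPM of 5 platelet genes was lower in HFD than in CD libraries of each adipose population without overlap, at 553 to 608 in HFD and 799 to 859 in CD libraries of pop1, 685 to 696 and 878 to 961 in pop2, 173 to 216 and 231 to 277 in pop4, and 587 to 629.5 and 939 to 986 in pop3. Neither the cells these transcripts came from nor their part in the diet differences was tested.

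Asah1 (chr8:41340646-41374697, minus strand) stood at 226 to 548 (median 289.7) CPM in HFD macrophages, against 389 to 977 (median 766) CPM in CD macrophages. Ggh stood at 66.5 to 285 (median 161) CPM in HFD macrophages, against 268 to 397 (median 333) CPM in CD macrophages. Lamp2 (chrX:38419503-38456460, minus strand), the membrane protein needed for chaperone-mediated autophagy, stood at 335 to 817 (median 578) CPM in HFD macrophages, against 518 to 1463 (median 1190.2) CPM in CD macrophages. The ranges of all 3 overlapped because of pop4: in pop1, pop2 and pop3 every HFD library was below every CD library of the same population, while pop4 HFD libraries of Asah1 and Lamp2 lay between the 2 pop4 CD libraries. With 2 libraries per diet in a population, such separation can arise by chance. The share of all genes that separated within a population was not counted. The log2 differences were -1.10 ± 0.12 for Asah1 (SE, adjusted p = 4.23e-05, edgeR), -1.10 ± 0.12 for Ggh (SE, adjusted p = 4.23e-05, edgeR) and -0.92 ± 0.13 for Lamp2 (SE, adjusted p = 0.000408, edgeR). These 3 genes were the ones still lower without pop2, by log2 differences of -0.90, -0.69 and -0.67.

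Ctbs stood at 2.38 to 134 (median 48.3) CPM in HFD macrophages and 40 to 287 (median 95.1) CPM in CD macrophages, a log2 difference of -1.75 ± 0.30 (SE, adjusted p = 0.00154, edgeR). Ctsc stood at 720.0 to 970.1 (median 843) CPM in HFD macrophages and 558 to 1857 (median 1369) CPM in CD macrophages, a log2 difference of -0.60 ± 0.11 (SE, adjusted p = 0.00204, edgeR). Both calls were lost without pop2. Tpp1 and Ctss were lower by log2 differences of -0.50 (adjusted p = 0.0324, edgeR) and -0.29 (adjusted p = 0.0205, edgeR), calls that held in 19 and 24 of 34 settings. Among the 126 other lysosomal genes 1 was higher and 12 were lower in HFD macrophages, where 1.67% of all genes were higher and 3.67% lower. The higher gene was the lysosomal transmembrane protein Laptm5, at 549.9 ± 85.1 CPM in HFD macrophages and 386 ± 75.4 CPM in CD macrophages (SD, n = 8 each), a log2 difference of 0.52 ± 0.09 (SE, adjusted p = 0.00207, edgeR). The lower genes included the lysozyme Lyz2, at 853 ± 191 CPM in HFD macrophages and 1277 ± 181 CPM in CD macrophages (log2 difference -0.61, adjusted p = 4.23e-05, edgeR), and the macrophage glycoprotein Cd68, at 331 ± 162 CPM in HFD macrophages and 586 ± 126 CPM in CD macrophages (log2 difference -0.94, adjusted p = 0.000408, edgeR). The others included Lyz1 (-1.17) and Prcp (-0.48) of the hydrolases, the membrane protein Tmem192 (-1.25), the pump subunits Atp6v1d (-0.67) and Atp6v0e (-0.49), the retromer subunit Vps29 (-0.84), Cst3 (-0.33), the kinase Mtor (-1.43) and Lamtor5 (-0.62), each with its log2 difference.

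Taken by population, pop2 carried the most calls. In pop2, 7 of the 42 genes were lower in HFD cells and none higher, where 0.755% of all genes were higher and 3.44% lower. The median log2 difference was -0.06 over the 42 and 0.30 over all genes, a shift that other scalings took to between 0.45 and 0.53. With those scalings 1 gene was higher and 5 or 6 were lower. Ctbs had 2.38 and 3.27 CPM in pop2 HFD libraries, against 96.5 and 287 CPM in pop2 CD libraries, a log2 difference of -6.08 ± 0.74 (SE, adjusted p = 7.5e-05, edgeR). Ggh had 71.2 and 66.5 CPM in pop2 HFD and 363 and 326 CPM in pop2 CD libraries, a log2 difference of -2.32 ± 0.24 (SE, adjusted p = 1.74e-05, edgeR). Asah1 had 303 and 276 CPM in pop2 HFD and 977 and 942 CPM in pop2 CD libraries, a log2 difference of -1.73 ± 0.25 (SE, adjusted p = 0.000437, edgeR). In all 3 genes both HFD libraries were far below both CD libraries. Lamp2 had 525 and 335 CPM in pop2 HFD and 1372 and 1318 CPM in pop2 CD libraries, a log2 difference of -1.65 ± 0.27 (SE, adjusted p = 0.00116, edgeR). Ppt1 had 162 and 116 CPM in pop2 HFD and 315 and 401 CPM in pop2 CD libraries, a log2 difference of -1.36 ± 0.35 (SE, adjusted p = 0.0292, edgeR). Neither gene overlapped between diets. The share of all genes that separated between the pop2 diet groups was not counted. Ctsc and Tpp1 were lower by log2 differences of -1.18 and -0.99. The Ppt1 call held in 26 of 33 settings and was lost with upper-quartile factors or library totals and without pop2 CD replicate 8 or pop2 HFD replicate 3. The Tpp1 call held in 19 of 33 and was lost under each other scaling, without pop2 CD replicate 7 or 8 or pop2 HFD replicate 3, and without monocyte CD replicate 3, 7 or 8 or monocyte HFD replicate 1 or 3. Both were lost with the adipose libraries alone and with the background covariate. Of the 126 other lysosomal genes, 3 were higher and 12 lower in pop2 HFD cells. Laptm5 and Lamtor4 were higher by 0.78 and 0.91, and the protease Ctse averaged 5.11 ± 4.99 CPM in pop2 HFD libraries (SD, n = 2) and was at 0 in both pop2 CD libraries. Named by size within their lists, 11 of the 12 lower genes were Tmem192 (-3.33), Cd68 (-2.04), Ostm1 (-1.64), Mtor (-2.80), Lamtor5 (-1.45), the autophagy gene Vps41 (-2.37), Fuca2 (-2.12), Ids (-1.19), Lyz2 (-0.79), Vps29 (-1.49) and Atp6v1d (-1.48), each with its log2 difference. Summed CPM of 7 dendritic cell genes also differed, at 35.1 to 68.9 in pop2 HFD and 263 to 383 in pop2 CD libraries, and background receptor CPM was 551 to 783 and 372 to 389. The gate gene Timd4 was at 88.9 to 102.5 CPM in pop2 HFD and 496 to 563 CPM in pop2 CD libraries. Their part in the pop2 differences was not tested.

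In pop1, 2 of the 42 genes were lower in HFD cells and none higher, where 0.0531% of all genes were higher and 0.383% lower. The median log2 difference was -0.17 over the 42 and -0.19 over all genes. Asah1 had 275 and 273 CPM in pop1 HFD and 689 and 647 CPM in pop1 CD libraries, a log2 difference of -1.29 ± 0.25 (SE, adjusted p = 0.0196, edgeR). Ggh had 154 and 137 CPM in pop1 HFD and 340.5 and 313 CPM in pop1 CD libraries, a log2 difference of -1.17 ± 0.23 (SE, adjusted p = 0.0222, edgeR). Neither gene overlapped between diets, but both calls were lost when any pop1 library was left out, and also without monocyte CD replicate 2 or 6, pop2 CD replicate 7 or pop3 CD replicate 8. The share of all genes that separated between the pop1 diet groups was not counted. The wider lists held 2 lower genes in pop1 HFD cells, the lysozymes Lyz1 and Lyz2 (log2 differences -2.97 and -0.86). Summed CPM of stromal progenitor genes was 129 to 217 in pop1 HFD and 236 to 828.9 in pop1 CD libraries, that of neutrophil genes 6.5 to 7.02 and 19 to 37, that of mesothelial genes 1.95 to 2.75 and 7.48 to 13.6, and that of T, B and NK cell genes 3.9 to 4.55 and 5.41 to 5.47. Their part in the pop1 differences was not tested. In pop3, 1 gene was higher in HFD cells and none lower, where 0.0825% of all genes were higher and 0.0118% lower. The median log2 difference was -0.17 over the 42 and -0.14 over all genes. The gene was Ctsz, with 377 and 320.2 CPM in pop3 HFD and 124 and 135 CPM in pop3 CD libraries, a log2 difference of 1.42 ± 0.27 (SE, adjusted p = 0.0345, edgeR). The gate gene Itgax was at 24.6 to 43.7 CPM in pop3 HFD and 1.13 to 11.2 CPM in pop3 CD libraries. Its part in the pop3 differences was not tested. Asah1 in pop3 had 226 and 431 CPM in HFD and 776 and 784 CPM in CD libraries, a log2 difference of -1.25 ± 0.25 that did not pass (SE, adjusted p = 0.0568, edgeR). With DESeq2 size factors or upper-quartile factors Asah1 was the pop3 call, lower by log2 differences of -1.34 and -1.45 (adjusted p = 0.0226 and 0.0262, edgeR), and Ctsz was not called. The Ctsz call held in 17 of 33 settings. No gene was called in pop3 without pop3 HFD replicate 2, without either pop3 CD library, without either pop4 HFD library, or without monocyte CD replicate 1, 3, 7 or 8 or monocyte HFD replicate 1 or 3, and both Ctsz and Asah1 were called without pop3 HFD replicate 3 or either pop4 CD library.

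In pop4 none of the 42 genes passed in edgeR or DESeq2, with 0 higher and 1 lower at an unadjusted p under 0.05, while 0% of all genes were higher and 0.0354% lower at the adjusted threshold. At the unadjusted threshold 360 of all genes were higher and 826 lower in edgeR, 6.99% together. Over the 42 the median log2 difference was -0.13 and over all genes -0.09. In monocytes, too, none passed in edgeR or DESeq2, with 0 higher and 1 lower at an unadjusted p under 0.05, while 0.0059% of all genes were higher and 0% lower at the adjusted threshold. At the unadjusted threshold 330 of all genes were higher and 839 lower in edgeR, 6.89% together. In monocytes the median log2 difference was -0.04 over the 42 and -0.08 over all genes. Asah1 had 548 and 483 CPM in pop4 HFD and 389 and 757 CPM in pop4 CD libraries, and stood at 833, 715 and 746 CPM in monocyte HFD libraries and 738 to 877 (median 820.1) CPM in monocyte CD libraries. The diet groups overlapped in both.

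The difference between diet effects was tested between the Tim4- and the Tim4+ populations. Of the 42 genes, 2 differed, both with a more negative HFD difference in Tim4+ cells, where 0.572% of all genes had a higher and 0.0649% a lower diet difference in Tim4- cells. The median was -0.02 over the 42 and -0.12 over all genes. Ctbs had a log2 diet difference of -1.14 in pop1, -6.08 in pop2, 0.32 in pop4 and -0.10 in pop3, and the Tim4- minus Tim4+ difference was 3.72 ± 0.60 (SE, adjusted p = 0.00693, edgeR). Ggh had a log2 diet difference of -1.17 in pop1, -2.32 in pop2, -0.22 in pop4 and -0.69 in pop3, and the Tim4- minus Tim4+ difference was 1.29 ± 0.23 (SE, adjusted p = 0.0121, edgeR). In both genes pop2 held the most negative value. The same test for Asah1 gave 0.81 ± 0.25 and for Lamp2 0.68 ± 0.27 (SE, adjusted p = 0.156 and 0.296, edgeR). With only the adipose libraries neither Ctbs nor Ggh was called, and Ggh was also lost with upper-quartile factors and with the background covariate. Without pop4 CD replicate 7 only Ctbs was called. Without pop4 CD replicate 8 there were 6 calls, among them Asah1 (1.10, adjusted p = 0.0198, edgeR) and Lamp2 (1.05, adjusted p = 0.0263, edgeR), and without pop3 HFD replicate 2 Asah1 was also called (1.02, adjusted p = 0.0331, edgeR). Over all libraries Asah1 and Lamp2 are not shown to differ between Tim4- and Tim4+ cells in their response to diet.

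**Figure D4:**
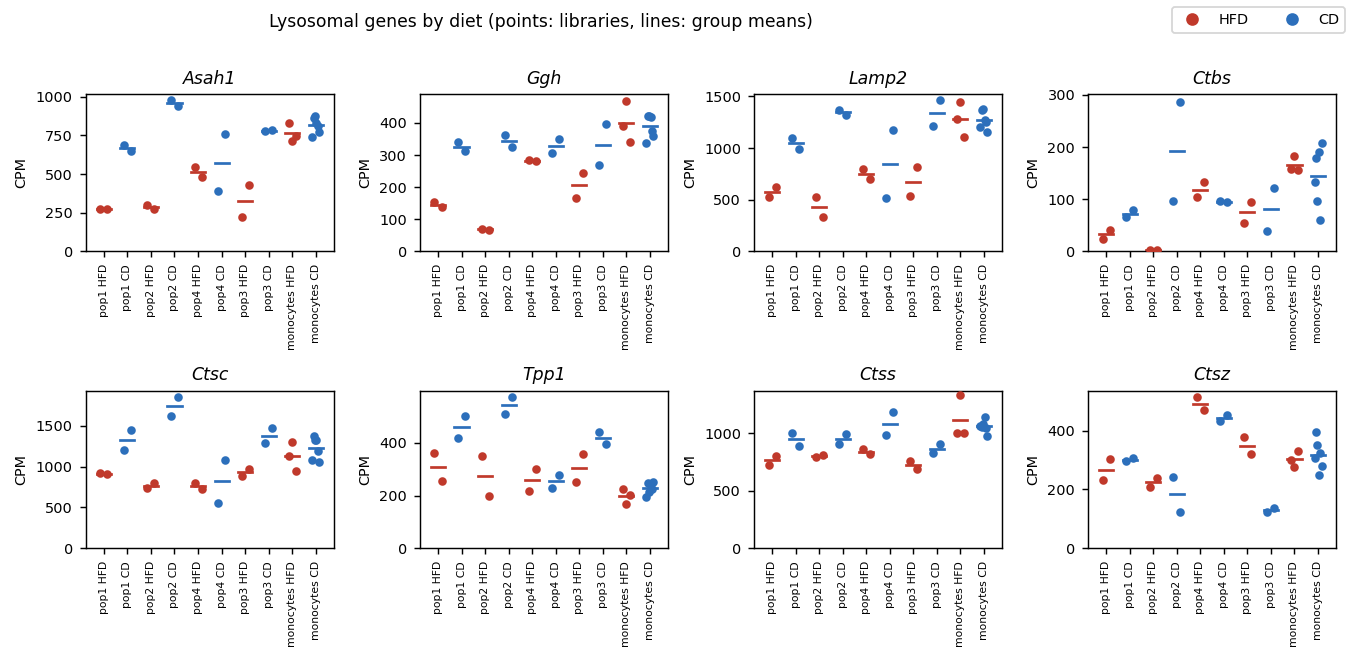
CPM of 8 lysosomal genes in each library, with HFD left of CD in every population, and short bars at group means. Asah1, Ggh and Lamp2 are lower in both HFD libraries of pop1, pop2 and pop3, with overlap of diets for Asah1 and Lamp2 in pop4 and for all 3 genes in monocytes, and Ctsz is higher in the pop3 HFD libraries.

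The genes that were lower in HFD macrophages shared a low GC content. Their transcripts held 38.5% to 46.8% GC, within a range of 38.5% to 63.2% over the 42. Across the 42 genes, the log2 diet difference over the 4 adipose populations and transcript GC had a Spearman coefficient of 0.78 and a Pearson coefficient of 0.64, a description over genes that share the same libraries. Over 16844 tested genes with a GC value the Spearman coefficient was 0.27. Of the 16 members under 48% GC, 1 had a diet difference above 0 and the median was -0.52, and of the 26 at or above 48% GC, 14 were above 0 and the median was 0.10. By population the Spearman coefficient over the 42 was 0.43 in pop1, 0.78 in pop2, 0.24 in pop4 and 0.59 in pop3, and 0.09 in monocytes.

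Whole libraries differed in the same property. Their count-weighted mean GC was 47.66% to 48.82% in adipose HFD and 46.96% to 48.05% in adipose CD libraries, and 46.94% to 47.49% in monocytes. In pop2 it was 48.57% to 48.82% in HFD and 47.14% to 47.16% in CD libraries. In pop1 it was 48.27% to 48.66% in HFD and 47.71% to 48.02% in CD libraries. In pop3 it was 47.7% to 48.25% in HFD and 46.96% to 47.28% in CD libraries. The diet groups did not overlap in pop1, pop2 or pop3. They overlapped in pop4, at 47.66% to 47.82% in HFD and 47.25% to 48.05% in CD libraries. After a correction of each library for GC, 5 of the 7 genes remained lower in HFD macrophages, by log2 differences of -0.86 for Asah1, -0.81 for Ggh, -1.39 for Ctbs, -0.55 for Lamp2 and -0.35 for Ctsc. Tpp1 and Ctss were no longer called. The Spearman coefficient with GC over the 42 was 0.54 after that correction. In pop2, 5 of the 7 genes were still called under it, Tpp1 and Ppt1 being lost. The pop3 call of Ctsz was lost under it (adjusted p = 0.127, edgeR). The part that GC content plays in the remaining differences was not tested.

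**Figure D5:**
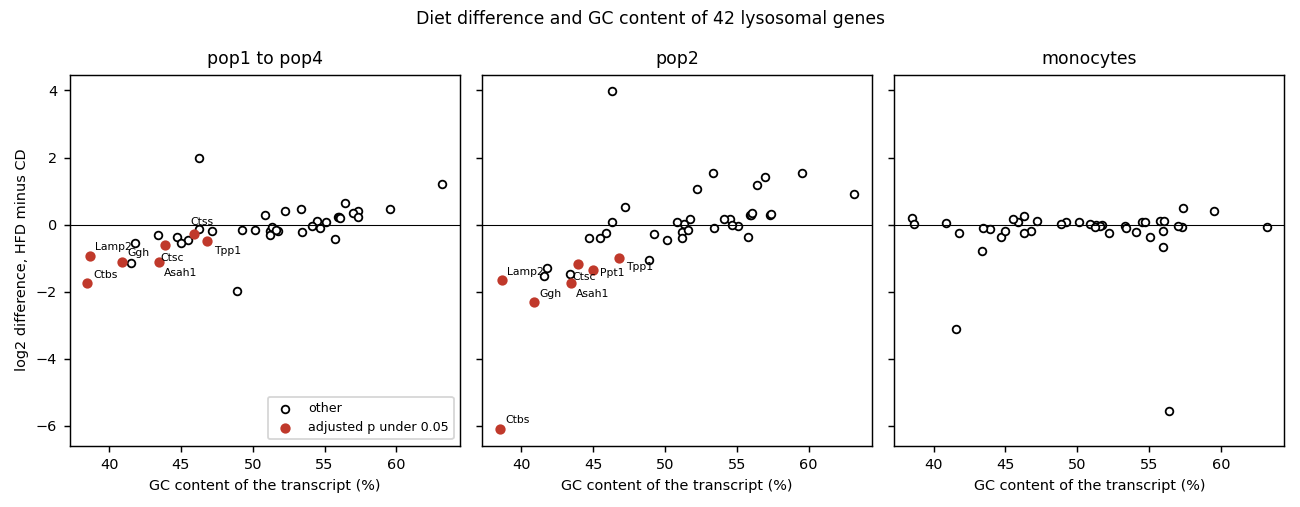
Log2 difference of HFD minus CD against transcript GC content (%) for the 42 genes, in 3 panels for the 4 adipose populations together, pop2 and monocytes. Most genes with low GC lie below 0 in the adipose and pop2 panels, where Asah1, Ggh, Lamp2 and Ctbs are lowest among the called genes, and the monocyte panel shows no such slope.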

How the data were processed

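Per the labels' protocols, 200 cells per sample were sorted into lysis buffer, and HiSeq libraries were made from amplified cDNA with 8 cycles of PCR. The deposited table holds the authors' raw counts of reads per gene model, with each model's chromosome, start, end, strand and length. Reads were aligned with STAR 2.5.3a to mm10 and handled with HOMER, per the submitters' processing notes. How duplicate reads and strand were treated is not given in the sources used here. Without molecular identifiers, the floors given cover counting error only.

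Groups came from titles and the diet and population labels, and each table column was matched to its sample by name. CPM of genes are relative to each library's deposited counts in genes multiplied by its TMM factor, and so are the floors. These factors were 0.893 to 1.15 over all libraries. They differed by diet in pop2, at 1.13 to 1.15 in HFD and 0.959 to 0.979 in CD libraries. Ranges and overlaps of gene CPM are on that scale. Background receptor CPM are relative to the deposited counts in genes without that factor. Counts were tested with edgeR 4.0.16 in R 4.3.3 (TMM factors, filterByExpr by group, robust quasi-likelihood fit of 10 group means over 25 libraries, 15 residual degrees of freedom, common biological coefficient of variation 0.749), with Benjamini-Hochberg adjustment over the 16961 genes kept and a threshold of 0.05. SE is the log2 difference divided by the root of the F statistic. Simulated data were used for adipose macrophages against monocytes, diet over the adipose populations and diet within pop2 only. For diet within pop2 the simulated spread was far smaller than that of these data. That run therefore cannot show how the pop2 diet test behaves at the spread seen here. Contrasts average the groups of each side with equal weight. Comparisons across populations share libraries.

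The 42 genes, the wider lists of 130 lysosomal genes and the marker lists were chosen with earlier results of these data known. Values are given for up to 10 called members with the largest log2 difference in each population contrast and up to 5 in each diet contrast, for the 5 members highest per kilobase, and for the up to 4 called genes of each wider list with the largest log2 difference. Exceptions are named as such. Values of 2 such genes are not reported here.

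Alternatives were DESeq2 (1.42.0) size factors and Wald test, upper-quartile factors, library totals, no filter, adipose or monocyte libraries alone for contrasts within them, background receptor CPM as a covariate, replicate number as a block, monocyte controls of the CD-CD series only, and each library left out. A GC correction (lowess over 8656 genes, span 0.3) and leaving out pop2 were added after seeing the data. Transcript GC came from GENCODE M21 transcripts, which matched 24295 of 24537 gene models and 42 of 42 members. Promoters came from RefSeq's table on GRCm38.p6.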

Additional observations from a re-analysis of the deposited data

Results flagged for a closer look

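In monocyte CD libraries, 5 of the 42 genes had a library far from the other 5. The rule used flags about 1 in 20 by chance where values are normally distributed. That rate need not hold for Ctsf, Ctsk and Atp6v0d2, which were at or near the floor in most of these libraries. No excess over chance can therefore be read from the count. Ctsf stood at 12.7 CPM in replicate 2, against 0 to 4.01 CPM in the others, and Atp6v0d2 at 8.82 CPM in the same replicate, against 0.117 to 0.376 CPM. Ctsk stood at 0.699 CPM in replicate 3, against 0 to 0.251 CPM. Lamp1 was low in replicate 1, at 580.2 CPM against 683 to 736 CPM, and Tfeb was low in replicate 7, at 3.17 CPM against 23.7 to 35.1 CPM. The diet effect differed between Tim4- and Tim4+ populations for Ctbs, by 3.72 on the log2 scale, and for Ggh, by 1.29 (edgeR, adjusted p = 0.00693 and 0.0121). Pop2 held the most negative diet difference of both genes.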

How the results depend on the processing

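Of 62 gene calls in the 11 comparisons, 23 held under every alternative and none reversed. The counts of calls moved by more than 1.5 times as follows. With background receptor CPM as a covariate, 14 genes were called between adipose macrophages and monocytes, 5 between Tim4+ and Tim4- cells, 2 between pop4 and pop3, 0 for diet in pop3 and 1 for the difference of diet effects. Calls over all genes also fell with that covariate in each of these comparisons. DESeq2's Wald test called 19 between Tim4+ and Tim4-, 10 between pop4 and pop3, 12 for diet over the adipose populations, 11 for diet in pop2 and 5 for diet in pop3. DESeq2 size factors alone gave 19 between Tim4+ and Tim4-, library totals gave 2 for diet in pop3, and upper-quartile factors gave 1 for the difference of diet effects. With no filter, 3 were called between pop4 and pop3 and 0 for diet in pop1. With the adipose libraries alone, 0 were called for diet in pop1, 0 in pop3 and 0 for the difference of diet effects. Without pop2, 3 were called for diet. The GC correction gave 0 for diet in pop3. The cause was not tested.

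Leaving out each library in turn gave 23 to 26 calls between adipose macrophages and monocytes, 8 to 14 between Tim4+ and Tim4-, 0 to 1 between pop1 and pop2, 2 to 6 between pop4 and pop3, 5 to 9 for diet over the adipose populations, 0 to 2 in pop1, 5 to 8 in pop2, 0 to 2 in pop3, 0 in pop4 and in monocytes, and 1 to 6 for the difference of diet effects. Where this leaves a group with 1 library, that library is assumed to vary like the others.

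Over 40 pairs with the same title number, the correlation of deviations from group means was -0.039 to 0.073. In groups of 2 libraries the deviations mirror each other, so pairs of adipose libraries repeat the same value under both numbers. Low correlations cannot show whether same-numbered libraries share an animal, which the labels do not state. With the replicate number as a block, 20 genes were called between adipose macrophages and monocytes, 12 between Tim4+ and Tim4-, 0 between pop1 and pop2, 5 between pop4 and pop3 and 0 for diet in monocytes. No paired analysis was possible for diet within the adipose populations because HFD and CD share no number. With 2 libraries a group and counts of 3.75 to 9.34 M, genes near the floor, such as Ctsk, Ctsf and Gla, carry wide errors.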
